A study of Mus musculus with 9 samples.

Results

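The genes described here are 8 genes of cholinergic transmission and of motor neuron identity, chosen by name, with earlier results of these data known, from the 52550 genes counted in the spinal cord of 9 mice. Chat, Slc18a3, Slc5a7 and Ache make, load, recycle and break down acetylcholine, Isl1 and Mnx1 encode transcription factors of motor neurons, and Prph and Chodl encode an intermediate filament and a membrane lectin found in motor neurons. All mice were adult female C57BL/6N, with 3 in each of 3 groups, and the tissue was the segment around the operated or injured site on day 7. Sham mice had a laminectomy only, SCI mice had a contusion at the tenth thoracic level and injections of DMSO as vehicle, and SCI+FIPI mice had the same contusion and FIPI, an inhibitor of phospholipase D dissolved in DMSO. The methods mention no vehicle for Sham mice, so contusion and vehicle cannot be told apart in a comparison with Sham. Counts per mouse totalled between 20806000 and 24582377.

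Acetylcholine is the transmitter by which motor neurons of the ventral horn drive skeletal muscle, and autonomic preganglionic neurons and a few spinal interneurons use it as well. Choline acetyltransferase joins choline to an acetyl group, the vesicular transporter packs the product into synaptic vesicles, acetylcholinesterase splits it in the cleft, and the high-affinity transporter returns the choline to the terminal. In whole tissue, fewer cholinergic cells, less RNA per cell and a larger share of RNA from other cells cannot be told apart.

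Chat (ENSMUSG00000021919) and Slc18a3 (ENSMUSG00000100241) share one locus on the reverse strand of chromosome 14 of GRCm38. Chat, the choline acetyltransferase gene, spans 32408203 to 32465989. Slc18a3, the gene of the vesicular acetylcholine transporter, spans 32462438 to 32464850, lies inside the span of Chat and shares 0 exonic bases with it, so that it is intronic to Chat. Their annotated starts are 1139 bases apart. The 250 bases before each RefSeq start site (GRCm38.p6) are shown because these genes could be read from one stretch of chromatin. They are chr14:32465910-32466159 for Chat and chr14:32464851-32465100 for Slc18a3, both on the reverse strand and written 5′ to 3′. In the first, 80 bases lie in an exon of Chat in GENCODE M21, which places its start further upstream. Capitals mark matches to the E-box CANNTG and to the GC box GGGCGG, read on both strands.
Chat: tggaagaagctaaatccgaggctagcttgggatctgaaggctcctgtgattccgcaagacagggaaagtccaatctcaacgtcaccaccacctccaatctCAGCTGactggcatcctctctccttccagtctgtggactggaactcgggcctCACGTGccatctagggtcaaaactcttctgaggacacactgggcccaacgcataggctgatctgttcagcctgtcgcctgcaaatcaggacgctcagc
Slc18a3: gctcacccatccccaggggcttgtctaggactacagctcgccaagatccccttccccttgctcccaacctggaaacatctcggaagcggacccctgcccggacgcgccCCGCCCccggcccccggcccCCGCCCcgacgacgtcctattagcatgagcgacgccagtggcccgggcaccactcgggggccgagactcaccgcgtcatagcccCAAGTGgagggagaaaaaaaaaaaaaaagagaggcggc

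The windows of Slc5a7 (chr17:54299035-54299284, reverse strand), Chodl (chr16:78930698-78930947, forward strand) and Prph (chr15:99054924-99055173, forward strand) are shown in the same way, because Slc5a7 and Chodl had the largest falls of the 8 genes after injury and Prph the smallest difference.
Slc5a7: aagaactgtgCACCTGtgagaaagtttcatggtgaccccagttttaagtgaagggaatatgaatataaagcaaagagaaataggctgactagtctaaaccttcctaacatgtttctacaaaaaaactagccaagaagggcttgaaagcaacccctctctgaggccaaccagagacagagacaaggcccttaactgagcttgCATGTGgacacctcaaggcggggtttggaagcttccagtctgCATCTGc
Chodl: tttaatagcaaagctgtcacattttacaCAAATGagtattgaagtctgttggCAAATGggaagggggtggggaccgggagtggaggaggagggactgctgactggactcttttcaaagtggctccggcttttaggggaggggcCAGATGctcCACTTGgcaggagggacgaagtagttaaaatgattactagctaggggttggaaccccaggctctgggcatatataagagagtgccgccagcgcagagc
Prph: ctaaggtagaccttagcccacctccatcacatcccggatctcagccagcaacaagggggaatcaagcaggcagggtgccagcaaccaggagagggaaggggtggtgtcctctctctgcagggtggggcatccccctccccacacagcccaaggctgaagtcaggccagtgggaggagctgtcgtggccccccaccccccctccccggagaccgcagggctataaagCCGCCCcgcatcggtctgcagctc

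An E-box was found in the window of 7 of the 8 genes, all except Prph, against 66.2% of 32851 promoter windows of the same length. The GC box was found in 4 of the 8 (Slc18a3, Ache, Mnx1 and Prph), against 32.7% of all windows. The homeodomain core TAATTA, present in 4.84% of all windows, and the half-sites CAGCACC and GGACAGC of the REST element, present in 5.73% and 5.28%, had no match in any of the 8 windows. The GC content of the windows ran from 45.6% in Slc5a7 to 73.6% in Ache. The window of Ache (chr5:137288004-137288253, forward strand) lies inside its GENCODE M21 span, which starts further upstream at 137287519. These are matches of letters and not measured binding.

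All 8 genes passed the filter on low counts, which left 18699 genes for testing. Per length of exon, as FPKM in the Sham group (mean ± SD, n = 3 mice each), Ache was highest with 49.1 ± 2.75. Prph followed with 29.2 ± 6.003 and Slc18a3 with 24.3 ± 5.24, which did not differ beyond their spread. Slc5a7 had 12.5 ± 1.67 FPKM, Chodl 5.56 ± 1.49 and Chat 4.55 ± 0.754, where Chodl and Chat did not differ beyond their spread. Mnx1 and Isl1 were lowest, with 1.08 ± 0.326 and 0.441 ± 0.168 FPKM. In SCI mice Ache, Prph and Slc18a3 were again the first in order, and Ache and Prph, with 21.03 ± 3.04 and 20.5 ± 5.47 FPKM, lay within their spread. In SCI+FIPI mice the mean of Prph was highest, with 33.4 ± 5.79 FPKM against 27.5 ± 1.58 FPKM for Ache. Isl1 rested on 13 to 52 counts per mouse and Mnx1 on 24 to 65, so that both are measured with low precision.

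After contusion, 7 of the 8 genes fell and 1 did not pass the limits. Calls needed a log2 fold change of 0.5 or more in either direction together with an adjusted p under 0.05, taken from the quasi-likelihood test of edgeR and adjusted by Benjamini-Hochberg over every gene tested. By this rule 22.5% of all genes were called lower. The median log2 fold change of the 8 genes was −1.07, against −0.003 over all genes tested. In 5 of the 8 every SCI mouse lay below every Sham mouse, which was true of 35% of all genes.

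**Figure D1:**
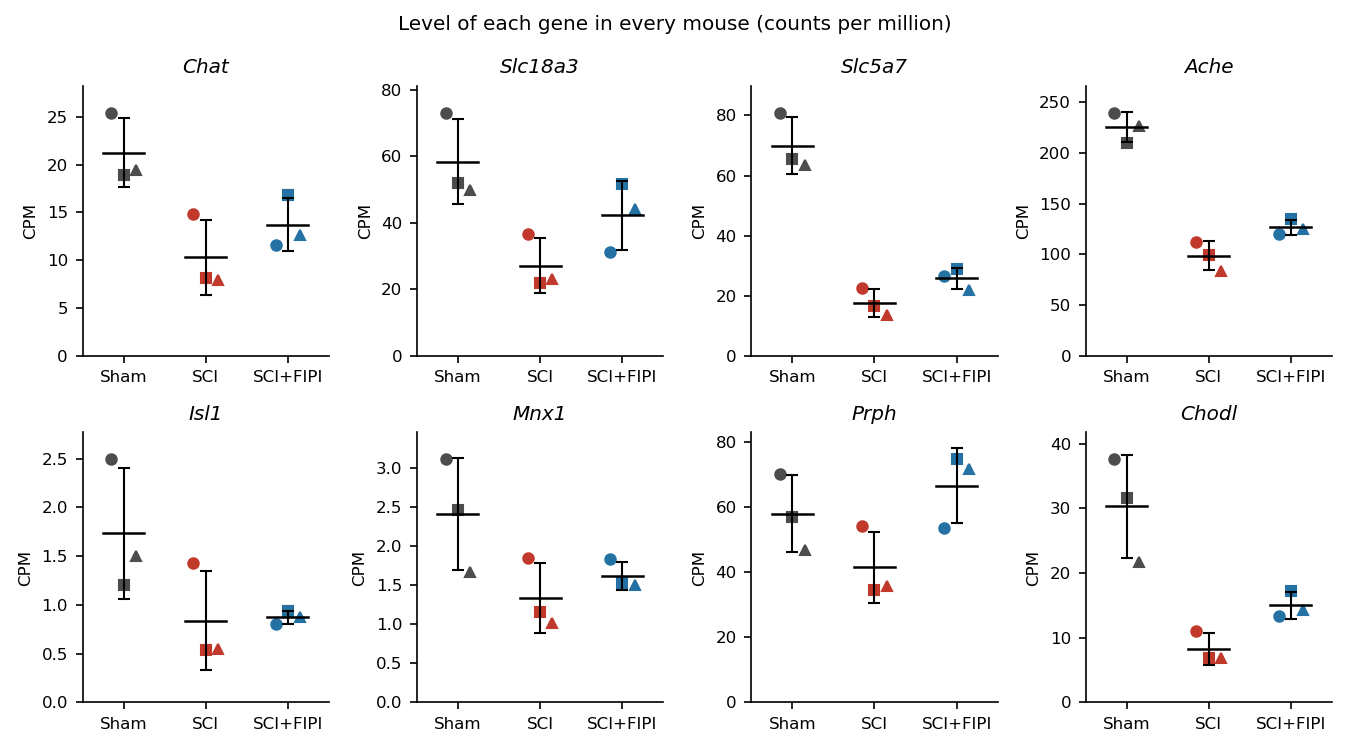
Level of each gene in CPM, counts scaled to the same library total in every mouse (linear axis from 0), in Sham, SCI and SCI+FIPI mice. Circles, squares and triangles are replicates 1, 2 and 3 of a group, which are different animals in each group, and horizontal bars are means and error bars SD (n = 3). Slc5a7 falls from 63.4 to 80.8 CPM in Sham mice to 13.7 to 22.6 CPM in SCI mice, whereas the Prph values of these groups overlap.

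The choline transporter gene Slc5a7 (ENSMUSG00000023945, chromosome 17, 54273590 to 54299034) fell most. Its level was 80.8, 65.5 and 63.4 CPM in Sham mice 1 to 3, 22.6, 16.5 and 13.7 CPM in SCI mice and 26.6, 28.95 and 22.02 CPM in SCI+FIPI mice. The Sham mice stood far above all 6 injured mice, whereas the lowest SCI+FIPI mouse lay just below the highest SCI mouse. The log2 fold change of SCI against Sham was −1.99 (adjusted p = 1.78e-05, edgeR, standard error 0.189), which left 25.2% of the Sham mean. It stayed between −2.21 and −1.83 with each mouse left out in turn.

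Chodl (ENSMUSG00000022860, chromosome 16, 78930948 to 78951733), the gene of chondrolectin, is known as a marker of fast motor neurons. It had 37.6, 31.7 and 21.7 CPM in Sham mice, 11.1, 6.91 and 6.79 CPM in SCI mice and 13.4, 17.3 and 14.3 CPM in SCI+FIPI mice. The 3 groups did not overlap, with SCI+FIPI between the others. After contusion its log2 fold change was −1.87 (edgeR, adjusted p = 0.00023, standard error 0.257), and the mean was 27.3% of that of Sham.

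Ache (ENSMUSG00000023328, chromosome 5, 137287519 to 137294466), the gene of acetylcholinesterase, had the tightest replicates. Its level was 239, 210 and 227 CPM in Sham mice, 112, 99.8 and 83.7 CPM in SCI mice and 121, 135 and 125 CPM in SCI+FIPI mice. Again the groups did not overlap and SCI+FIPI lay between. SCI lay below Sham, with a log2 fold change of −1.19 (edgeR, adjusted p = 1.1e-07, standard error 0.0929). A noncoding gene on the other strand, Gm42456, covers 2.12% of the exonic bases of Ache, and the sources used here do not say whether the counting used the strand.

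Chat had 25.4, 18.9 and 19.4 CPM in Sham mice, 14.8, 8.10 and 7.97 CPM in SCI mice and 11.6, 16.9 and 12.7 CPM in SCI+FIPI mice. Slc18a3 had 72.96, 52.00 and 49.98 CPM in Sham mice, 36.5, 21.8 and 23.1 CPM in SCI mice and 31.2, 51.6 and 44.1 CPM in SCI+FIPI mice. In both genes replicate 1 was the highest Sham mouse and the highest SCI mouse, and replicate 2 the highest SCI+FIPI mouse. The falls after contusion were alike in size, with log2 fold changes of −1.04 for Chat (adjusted p = 0.00815, standard error 0.266) and −1.10 for Slc18a3 (adjusted p = 0.0122, standard error 0.287, edgeR for both). Without SCI replicate 3 the adjusted p of Slc18a3 was 0.0518.

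The per-mouse log2 ratio of Slc18a3 to Chat was 1.45 ± 0.0792 in Sham, 1.41 ± 0.115 in SCI and 1.61 ± 0.189 in SCI+FIPI mice (SD, n = 3 each). It differed by −0.03 between SCI and Sham (exact two-sided permutation test, p = 0.8). The ratio of Slc5a7 to Chat was 1.72 ± 0.0610 in Sham and 0.80 ± 0.210 in SCI mice, a difference of −0.92, and that of Chodl to Chat differed by −0.78. The ratio of Prph to Chat differed by 0.59 the other way. In these 3 ratios the SCI and Sham mice did not overlap, and the exact permutation test gave p = 0.1, below which 3 mice against 3 cannot go. After adjustment over the 21 ratio tests the lowest p was 0.3, so that no ratio passed.

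The homeodomain genes Isl1 (ENSMUSG00000042258, chromosome 13, 116298281 to 116309689) and Mnx1 (ENSMUSG00000001566, chromosome 5, 29473034 to 29478470) specify motor neurons in the embryo. The raw counts of Isl1 were 52, 28 and 36 in Sham mice, 34, 13 and 13 in SCI mice and 18, 22 and 21 in SCI+FIPI mice. Those of Mnx1 were 65, 57 and 40 in Sham mice, 44, 28 and 24 in SCI mice and 41, 36 and 36 in SCI+FIPI mice. SCI replicate 1 lay within the range of the Sham mice for both genes. The log2 fold change of SCI against Sham was −1.04 for Isl1 (adjusted p = 0.0287, standard error 0.388) and −0.84 for Mnx1 (adjusted p = 0.0173, standard error 0.285, edgeR). Both calls were lost without Sham replicate 1 (adjusted p = 0.161 and 0.0941), without SCI replicate 2 (0.109 and 0.0608) or without SCI replicate 3 (0.101 and 0.0716, all edgeR). That of Isl1 was also lost in an edgeR fit to Sham and SCI mice alone (adjusted p = 0.0519).

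Prph (ENSMUSG00000023484, chromosome 15, 99055174 to 99058978) encodes peripherin, an intermediate filament of neurons whose axons leave the central nervous system. It had 70.3, 56.9 and 46.7 CPM in Sham mice, 54.1, 34.6 and 35.7 CPM in SCI mice and 53.6, 74.6 and 71.6 CPM in SCI+FIPI mice. The 3 groups overlapped, and 2 of the SCI+FIPI mice had the highest values of all 9. Its log2 fold change of SCI against Sham was −0.48 (95% confidence interval −1.05 to 0.09, adjusted p = 0.119, edgeR), and it passed both limits without SCI replicate 1 (−0.72, adjusted p = 0.0244) and with a correction for GC content and gene length (−0.72, adjusted p = 0.0157).

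Between SCI+FIPI and SCI, 0 of the 8 genes passed both limits of edgeR's test, and 2.36% of all genes were called higher. Their log2 fold changes lay between 0.06 and 0.86 with a median of 0.48, against −0.001 over all genes tested. At an unadjusted p under 0.05, 4 of the 8 were higher (Slc5a7, Ache, Prph and Chodl), against 13.7% of all genes. Every SCI+FIPI mouse lay above every SCI mouse in 2 of the 8, Ache and Chodl, as in 15.7% of all genes. The difference in Ache was 0.36 (95% confidence interval 0.16 to 0.56, adjusted p = 0.0287, edgeR), under the fold limit. That in Chodl was 0.86 (0.25 to 1.46, adjusted p = 0.0817), in Prph 0.68 (0.12 to 1.25, adjusted p = 0.131), in Slc18a3 0.64 (−0.05 to 1.33, adjusted p = 0.229), in Slc5a7 0.55 (0.11 to 1.00, adjusted p = 0.116) and in Chat 0.41 (−0.21 to 1.04, adjusted p = 0.393, edgeR for all).

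This count of 0 depended on the test and on single mice. DESeq2 called 3 genes higher, Slc5a7, Prph and Chodl, and limma-voom called Prph and Chodl. Without SCI replicate 1, the SCI mouse with the highest value in all 8 genes, edgeR called 4 higher. These were Chat (log2 fold change 0.78, adjusted p = 0.0141), Slc5a7 (0.78, 0.01), Prph (0.93, 0.0379) and Chodl (1.14, 0.0201). Calls over all genes, in either direction, rose as well in that fit, from 572 to 1038. Without Sham replicate 3 edgeR called Chodl alone (0.86, adjusted p = 0.0253). Totals over all genes for DESeq2 and limma-voom are not reported here. The intervals of Isl1 (−0.83 to 0.95) and Mnx1 (−0.36 to 0.91) allow a rise or a fall.

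**Figure D2:**
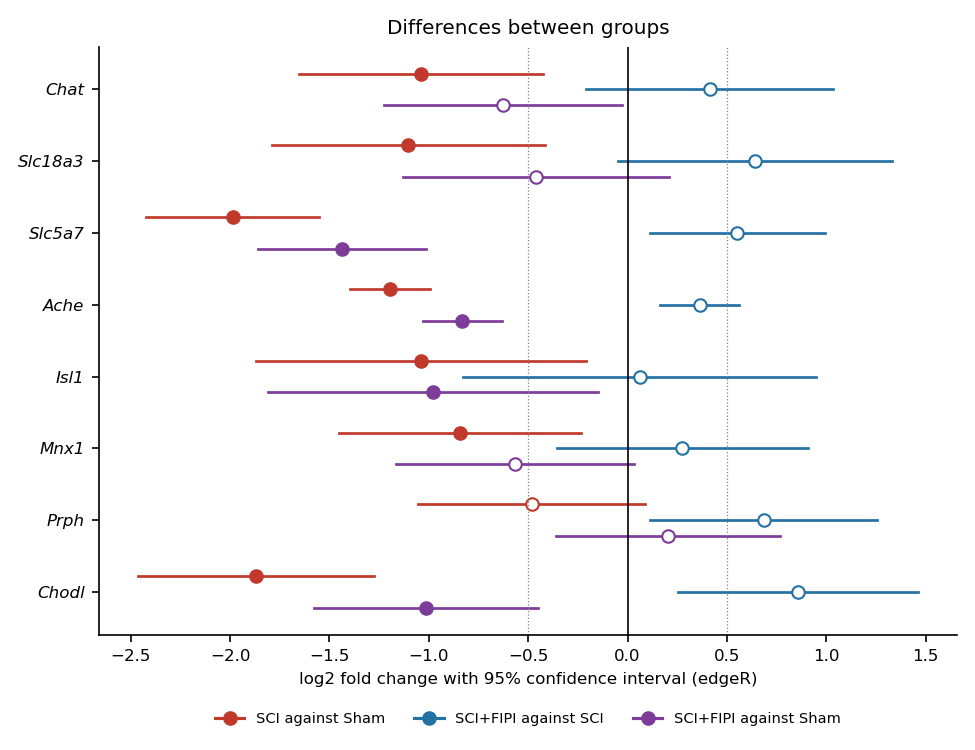
Log2 fold change of each gene with its 95% confidence interval derived from edgeR's test, for SCI against Sham, SCI+FIPI against SCI and SCI+FIPI against Sham. Filled points passed both limits, open points did not, and dotted lines mark the fold limit of 0.5 in either direction. Of the SCI against Sham points 7 of 8 are filled, and of the SCI+FIPI against SCI points 0 of 8.

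SCI+FIPI mice were also set against Sham mice, a comparison that shares its samples with the other comparisons. Here 4 of the 8 genes fell, and 17% of all genes were called lower. Slc5a7 fell by 1.44 on the log2 scale (adjusted p = 0.000167), Chodl by 1.01 (adjusted p = 0.0072), Isl1 by 0.98 (adjusted p = 0.0417) and Ache by 0.83 (adjusted p = 4.98e-06, edgeR for all). The call of Isl1 was lost in 5 of the 9 fits with a mouse left out, namely without Sham replicate 1 or 3 or any one SCI+FIPI mouse, with adjusted p from 0.0534 to 0.214. Chat (−0.63, adjusted p = 0.0692), Mnx1 (−0.57, adjusted p = 0.096), Slc18a3 (−0.46, adjusted p = 0.202) and Prph (0.20, adjusted p = 0.495) did not pass. Chat passed in DESeq2 (−0.63, adjusted p = 0.00711) and in limma-voom (−0.62, adjusted p = 0.0158), and in edgeR without SCI replicate 1 (adjusted p = 0.00329) or SCI+FIPI replicate 2 (adjusted p = 0.0428). Mnx1 passed without Sham replicate 3 (−0.78, adjusted p = 0.0318), and Isl1 did not pass in limma-voom (−0.89, adjusted p = 0.0574). With a correction for GC content and gene length 7 of the 8 passed as lower, all except Prph, whose value became −0.09. The share of all genes called lower with this correction is not reported here. The groups did not overlap in 5 of the 8 genes, Chat, Slc5a7, Ache, Isl1 and Chodl, against 32.9% of all genes lower in this way. The mean level in SCI+FIPI mice was 37.0% of the Sham mean for Slc5a7, 49.5% for Chodl, 50.3% for Isl1, 56.2% for Ache, 64.6% for Chat, 67.2% for Mnx1, 72.5% for Slc18a3 and 115% for Prph.

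Neuronal transcripts at large were lower in these segments, which is the background for a set of neuronal genes. All 14 of a list of general neuron markers, such as Snap25 and Rbfox3, fell after contusion, with a median log2 fold change of −1.41. Their geometric mean was 95.9% to 103% of the Sham average in Sham mice, 34.3% to 42.3% in SCI mice and 50.9% to 55.6% in SCI+FIPI mice. A second edgeR fit took this mean as an offset in each mouse and so tested the difference between a gene and the neuron markers. By construction it raises the median of all genes, to 1.36 in SCI against Sham, so that 81.8% of all genes were then called higher and 1.01% lower.

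Relative to the neuron markers, Slc5a7 and Chodl were lower in SCI than in Sham mice and Prph was higher. The relative log2 fold changes were −0.64 for Slc5a7 (adjusted p = 0.000148), −0.53 for Chodl (adjusted p = 0.0285) and 0.87 for Prph (adjusted p = 0.00151, edgeR). Chat (0.30, 95% confidence interval −0.11 to 0.72), Slc18a3 (0.25, −0.28 to 0.77), Ache (0.16, −0.01 to 0.33), Isl1 (0.30, −0.48 to 1.08) and Mnx1 (0.50, −0.10 to 1.10) did not pass. The Slc5a7 and Chodl results depended on the reference genes. With 4 neurofilament genes as the reference the values were −0.45 for Slc5a7 and −0.33 for Chodl, and with 6 genes of inhibitory neurons −0.26 and −0.15, none past both limits. The call of Chodl was also lost without Sham replicate 1 or 2 or SCI replicate 2 or 3, with values from −0.48 to −0.35. Prph stayed higher by all 3 references, with 1.07 against neurofilament genes and 1.25 against genes of inhibitory neurons. With the latter as the reference Chat, Slc18a3, Ache and Mnx1 passed as higher too, and Mnx1 also with neurofilament genes (0.69). Higher calls are common by construction. With the neuron markers 81.8% of all genes were called higher, and the median of all genes, 1.36, lay above the value of Prph. For the other references the share of all genes is not reported here, so these higher calls are not read as particular to the genes.

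Between SCI+FIPI and SCI, 0 of the 8 genes differed from the neuron markers past the limits, where 0.203% of all genes were called higher and 34% lower. The relative differences ran from −0.36 in Isl1 to 0.42 in Chodl. Chodl passed without SCI replicate 1 (0.61, adjusted p = 0.0287, edgeR). Between SCI+FIPI and Sham, Slc5a7 was lower relative to the markers (−0.52, adjusted p = 0.00108, with 0.594% of all genes called lower) and Prph higher (1.12, adjusted p = 0.000297, edgeR, with 71.4% of all genes called higher). The Slc5a7 value fell under the fold limit without Sham replicate 1 (−0.41) or SCI+FIPI replicate 3 (−0.45). It also did not pass with neurofilament genes (−0.44) or genes of inhibitory neurons (−0.24) as the reference. Slc18a3 passed as higher with both of these references (0.53 and 0.74) and Chat with genes of inhibitory neurons (0.57), whereas Prph stayed higher with both. Shares of all genes called higher with these references are not reported here.

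**Figure D3:**
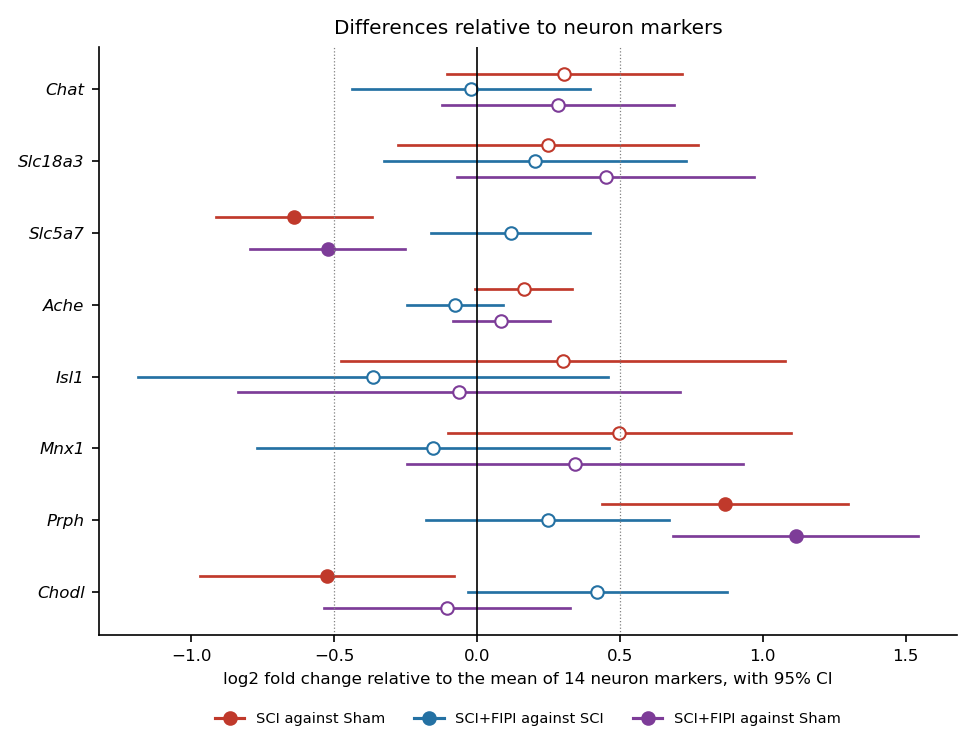
Log2 fold change of each gene relative to the mean of 14 neuron markers in the same mouse, for the same 3 comparisons. Bars are 95% confidence intervals derived from edgeR's test. Zero means a change equal to that of the markers, filled points passed both limits and dotted lines mark 0.5 in either direction. Slc5a7 and Chodl lie at −0.64 and −0.53 and Prph at 0.87 in SCI against Sham, and 0 of 8 points are filled for SCI+FIPI against SCI.

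In each group a single mouse had the highest value in most of the 8 genes. Sham replicate 1 had the highest value of its group in all 8 genes, although it was highest in 31% of all genes tested, and SCI replicate 1 in all 8 against 34.7%. SCI+FIPI replicate 2 was highest in 7 of the 8, all except Mnx1, against 32.6%. In SCI+FIPI replicates 1 and 3 the 8 genes lay on both sides of the group mean. The median difference of the 8 genes from the group mean was 0.32 on the log2 scale in Sham replicate 1, 0.47 in SCI replicate 1 and 0.18 in SCI+FIPI replicate 2. The neuron markers differed from the group mean by 0.01, 0.13 and 0.07 in these mice. The amount of ventral horn in each piece is not given in the sources used here, and its part was not tested.

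**Figure D4:**
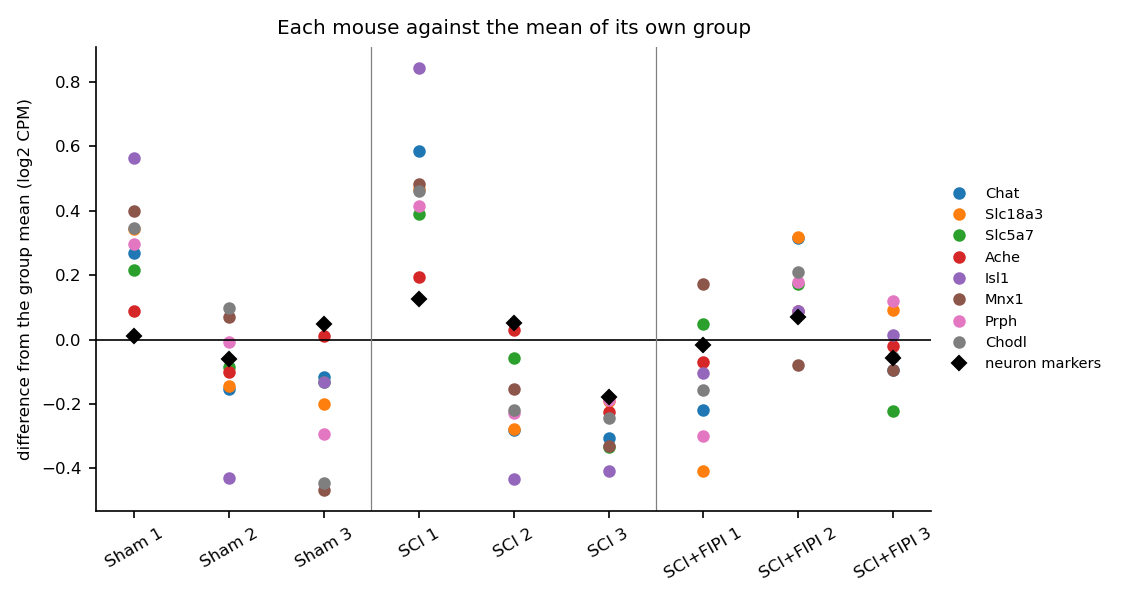
Difference of each mouse from the mean of its own group in log2 CPM, for the 8 genes (circles) and the mean of the neuron markers (black diamonds). All 8 genes lie above 0 in Sham replicate 1 and SCI replicate 1, where the neuron markers lie at 0.01 and 0.13.

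Isl1 and Prph are also genes of sensory and autonomic ganglia, and spinal roots can stay on a piece of cord. Of 7 markers of sensory ganglia only 3 passed the count filter. The summed level of the 7 was 10.5 to 11.96 CPM in Sham, 5.996 to 6.92 CPM in SCI and 7.11 to 8.47 CPM in SCI+FIPI mice. Pou4f1, a transcription factor gene of sensory neurons, gave most of the Sham sum, with a mean of 7.74 CPM in Sham, 2.23 CPM in SCI and 4.04 CPM in SCI+FIPI mice. After contusion Pou4f1 fell (−1.79, adjusted p = 1.59e-07), Avil rose (0.98, adjusted p = 0.00225), and P2rx3 (−0.51) did not pass. Pou4f1 was also higher in SCI+FIPI than in SCI mice (0.86, adjusted p = 0.00829, edgeR for all). Whether the Pou4f1 counts came from ganglion tissue or from the cord was not tested. Of the 4 genes under the filter, Mrgprd, Scn10a, Scn11a and Trpv1 had at most 1, 4, 8 and 11 counts in any mouse. The summed level of 6 genes of Schwann cells and roots, of which Pmp2 was at or near 0, was 307, 581 and 343 CPM in Sham mice, 643, 524 and 537 CPM in SCI mice and 348, 919 and 878 CPM in SCI+FIPI mice. SCI+FIPI replicates 2 and 3 had the highest root sums and the highest Prph values of all mice, and SCI+FIPI replicate 1 had the lowest root sum and the lowest Prph value of its group. The SCI mice followed the same order within their group, with Prph levels of 54.1, 34.6 and 35.7 CPM in replicates 1 to 3. The Sham mice did not, since Sham replicate 1 had the lowest root sum of all 9 mice and the highest Prph level of its group, 70.3 CPM. Between groups, SCI replicates 2 and 3 had the lowest Prph levels of all mice, with root sums above those of Sham replicates 1 and 3. The part of root tissue in the Prph values was not tested. Skeletal muscle markers summed to 9.61 to 46.0 CPM over all mice, and erythroid markers to 63.2 to 391 CPM with the Sham mice highest.

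Other genes of these pathways were taken from fixed lists. Of 19 further genes of motor and other cholinergic neurons 18 were tested, and after contusion 11 fell, 4 rose and 3 did not pass. Over all genes 22.5% were called lower and 24.4% higher, so that the share that rose was near that of all genes. The LIM homeodomain genes Lhx4 (−1.93), Lhx3 (−1.66), Lhx1 (−1.59) and Isl2 (−1.09) fell. Esrrg (−1.91) and Esrrb (−1.90), nuclear receptor genes of the estrogen-related family, fell, as did Calca (−1.73) and Calcb (−1.59), which encode calcitonin gene-related peptides, the synaptic vesicle gene Sv2b (−1.80), Nos1 (−1.38) and Uts2 (−1.52). Those that rose were Spp1 (5.30), Ngfr (2.24), Aldh1a2 (1.38) and Foxp1 (1.05), all log2 fold changes. Spp1 encodes osteopontin, which macrophages make as well, Ngfr the low-affinity neurotrophin receptor, also of Schwann cells, and Aldh1a2 a retinoic acid enzyme, also of meninges. The 6 myeloid markers all rose, from 286 to 409 CPM in sum in Sham mice to 5389 to 6554 CPM in SCI mice, and their part in the rise of Spp1 was not tested. Gfra1 (−0.07) and Ret (0.06), which encode the receptor of the factor GDNF, and Mmp9 (−0.29) did not pass. Relative to the neuron markers, 3 of the 18 genes were lower, 7 were higher and 8 did not pass. Over all genes 1.01% were lower and 81.8% higher in that fit.

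Of 16 nicotinic acetylcholine receptor subunit genes 9 were tested, and 7 fell after contusion, against 22.5% of all genes. Chrna7 (−2.01) encodes the subunit of homomeric receptors and Chrna4 (−1.60) and Chrnb2 (−1.25) those of the main heteromeric receptor of the brain. Chrna2 (−1.96), Chrna5 (−1.62), Chrna3 (−1.60) and Chrnb4 (−1.05) also fell, whereas Chrna1 (−0.30) and Chrnb1 (0.04), subunits of the muscle receptor, did not pass. Relative to the neuron markers, 2 of the 9 were lower, 2 were higher and 5 did not pass. Over all genes 1.01% were lower and 81.8% higher in that fit. Of the 5 muscarinic receptor genes, all tested, 2 fell. Chrm2 (−2.05) and Chrm3 (−1.51) fell, and Chrm1 (0.38), Chrm4 (−0.55) and Chrm5 (−0.66) did not pass. Relative to the neuron markers, 1 of the 5 was lower, 2 were higher and 2 did not pass.

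Among 12 genes of choline and acetylcholine handling that are not confined to cholinergic neurons, 11 were tested, and 3 fell, 3 rose and 5 did not pass. Both shares were near those of all genes, 22.5% lower and 24.4% higher, and nothing is read from them about the list. Colq (−1.02) and Prima1 (−0.57), which encode anchors of acetylcholinesterase, and Bche (−0.68), the gene of butyrylcholinesterase, fell. The choline transporter-like genes Slc44a2 (0.99) and Slc44a3 (0.58) and the choline kinase gene Chkb (0.54) rose, whereas Slc44a1 (0.28), Chka (0.07) and Pcyt1a (0.24) did not pass.

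**Figure D5:**
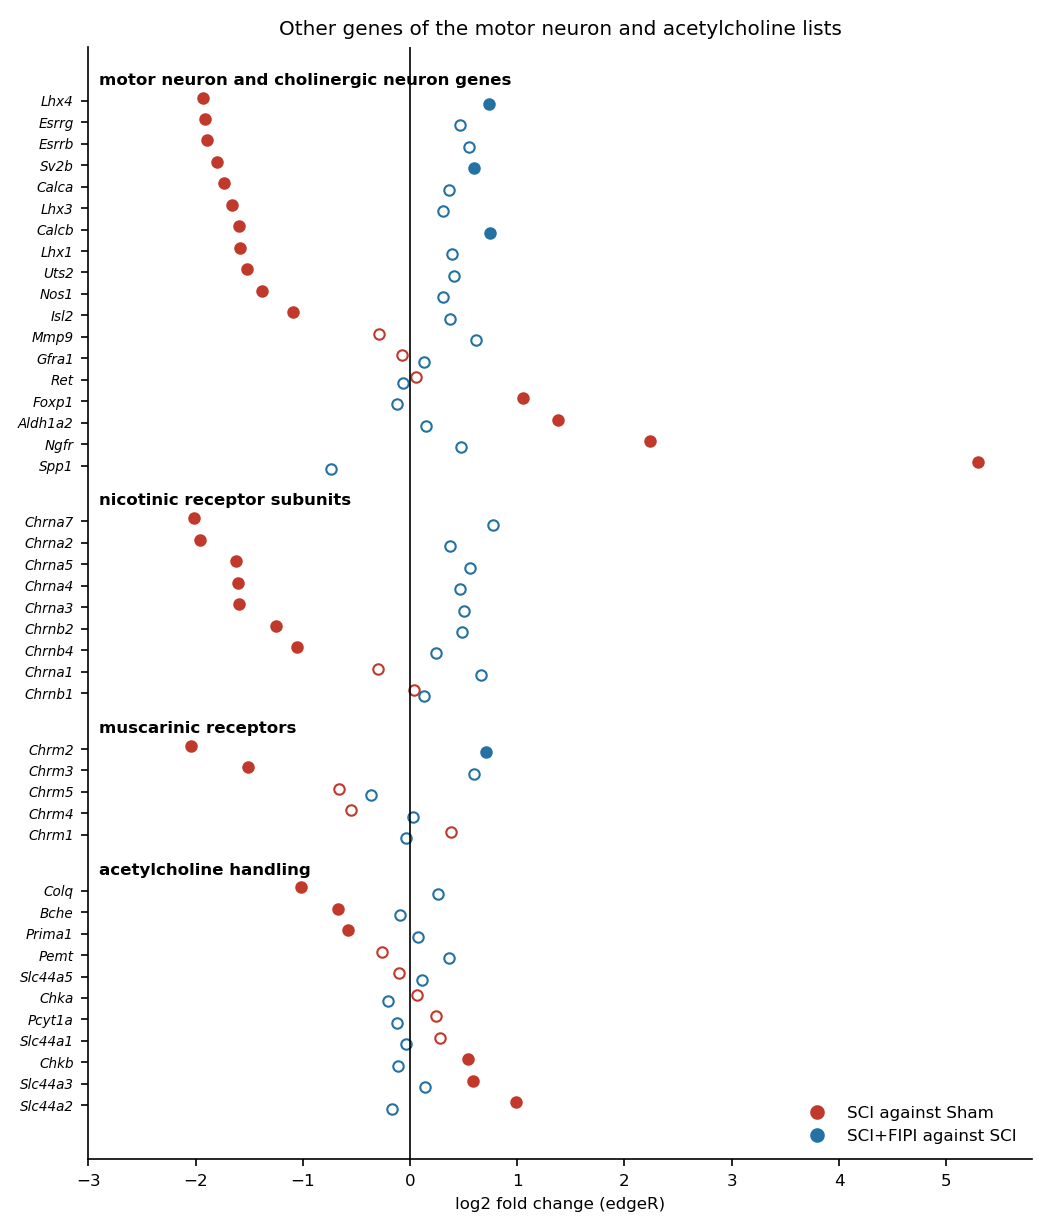
Log2 fold change (edgeR) of the tested genes in lists of motor neuron and cholinergic neuron genes, nicotinic receptor subunits, muscarinic receptors and acetylcholine handling, for SCI against Sham and SCI+FIPI against SCI. Filled points passed both limits and open points did not. In SCI against Sham 11 of 18, 7 of 9, 2 of 5 and 3 of 11 genes fell, in the order of the lists.

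Between SCI+FIPI and SCI, 3 of the 18 motor neuron and cholinergic neuron genes were higher, against 2.36% of all genes. These were Calcb (0.75, adjusted p = 0.0176), Lhx4 (0.73, adjusted p = 0.0336) and Sv2b (0.60, adjusted p = 0.0427, edgeR). Of the 5 muscarinic genes 1 was higher, Chrm2 (0.71, adjusted p = 0.0266, edgeR), 0 of 9 nicotinic genes passed, and 0 of 11 genes of acetylcholine handling passed. Chrnb2 (0.49, adjusted p = 0.00307) and Chrna4 (0.47, adjusted p = 0.0232) were under the fold limit. Of the 14 neuron markers 5 were higher, and the median of the 14 log2 fold changes was 0.47, next to the median of 0.48 of the 8 genes.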

How the data were processed

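Spinal cord RNA of 9 mice was enriched on oligo(dT) beads and sequenced on the Illumina platform. The authors removed adapter and low-quality sequence, counted reads per gene and deposited raw counts of 52550 Ensembl genes in each mouse. The submitters' processing notes name GRCm38 and R 4.2.3. The aligner, the counting program and its strand setting are not given in the sources used here, although the library kit marks strands. Symbols, positions and exonic lengths came from GENCODE M21 (GRCm38), which holds 52403 of the identifiers, and promoter sequences from RefSeq (GRCm38.p6), where all 8 genes matched.

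The analysis used edgeR 4.0.16 in R 4.3.3. TMM factors were used, filterByExpr kept 18699 genes, and a robust quasi-likelihood model with 1 mean per group was fitted to all 9 mice, with 6 residual degrees of freedom. The limits, an absolute log2 fold change of 0.5 and an adjusted p of 0.05, are those of the study's methods, which name no test. CPM are counts scaled by the TMM library size, FPKM relates a count to the library total and to the exonic length of the gene, and log2 CPM used a prior count of 2. Each library was counted as 1 mouse, following the sample titles and the n = 3 per group of the study. Libraries of a group differed by more than sampling noise (chi-square per gene from 6.59 to 12.7), so they were not taken for repeat sequencing of 1 library. That value alone does not show separate animals. The named genes are the 8 members, the members of the fixed lists and, for each member, the 3 genes with the highest correlation. Not every gene covered by this rule is reported here, and list counts leave out such genes. The members and lists were chosen with earlier results of these data known. Results were recomputed with upper-quartile or RLE factors, other filters, a replicate block, a correction for GC content and gene length, fits to the compared groups only, DESeq2 1.42.0, limma-voom (limma 3.58.1), other fold limits, without Y-linked, hemoglobin and mitochondrial genes, and each mouse left out. On simulated data for SCI against Sham (18162 genes), 54, 73 and 70 genes were changed by a log2 fold of 0.5, 1 and 2. Of these edgeR called 33.3%, 79.5% and 94.3%, with 7 false calls. A call also needed a fitted log2 fold of 0.5 or more. Genes changed by 0.5 had a median fit of 0.498, so the limit itself lowers the first rate. In the data far more genes passed, 8780, so these rates are not the power of that comparison.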

Additional observations from a re-analysis of the deposited data

How the results depend on the processing

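No log2 fold change of the 8 genes that was called changed sign under any of the 13 other settings or with any mouse left out. Settings that altered only the fold limit reuse the main fit, so that no sign could change in them. For SCI+FIPI against SCI, where 0 of the 8 passed, DESeq2 called 3, limma-voom 2, edgeR on the compared groups only 1, and edgeR without a fold limit 1. DESeq2 gave no adjusted p for Isl1. For SCI+FIPI against Sham, where 4 passed, a correction for GC content and gene length gave 7 and a fold limit of 1 gave 2. With genes of inhibitory neurons as the reference, 5 in place of 3 passed relative to neuron markers in SCI against Sham. Shares of all genes called with that reference, or with the correction for GC content and gene length, are not reported here. The causes of these shifts were not tested.

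With each mouse left out, the count of the 8 genes past both limits ran from 4 to 8 for SCI against Sham (4 without SCI replicate 3), from 0 to 4 for SCI+FIPI against SCI (4 without SCI replicate 1, 1 without Sham replicate 3) and from 3 to 5 for SCI+FIPI against Sham. Relative to neuron markers it ran from 0 to 1 for SCI+FIPI against SCI (1 without SCI replicate 1) and from 1 to 3 for SCI+FIPI against Sham (1 without SCI+FIPI replicate 3). Over all genes, 572 passed in SCI+FIPI against SCI, with 189 to 1038 when a mouse was left out (1038 without SCI replicate 1, and 189, 240 and 341 without SCI+FIPI replicate 2, SCI replicate 3 and SCI replicate 2). Without a fold limit 1800 passed there and 11060 in SCI+FIPI against Sham, and with a limit of 1 the counts were 65, 3376 and, for SCI against Sham, 5059.

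The replicate numbers shared by the groups name different mice. Deviations of same-numbered mice from their group means correlated from −0.0726 to 0.108, and of other pairs from −0.108 to 0.0889, so that the numbers were not taken to pair mice. With the replicate block 2 of the 8 genes, Slc5a7 and Chodl, passed in SCI+FIPI against SCI, and 2 with the replicate block and the GC and length offsets. With 3 mice a group, depth limits Isl1 and Mnx1, at 13 to 65 counts per mouse.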

Other observations

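The genes with the most similar levels over the 9 mice were found among 16013 genes whose mean log2 CPM was 0 or more, by Pearson's r of log2 CPM. These values mix the differences between groups with those between mice and are a description. Ache was most like Sptbn4, Gm37711 and 1110051M20Rik (r = 0.999 for each). Chat was most like B3gat3 (0.986) and Gstm5 (0.981) beside an unnamed gene, Cpne6 (0.989) and A930012L18Rik (0.988) were among the 3 closest to Chodl, and Prph was most like Cuedc1 (0.962), Pebp1 (0.959) and Tmem147 (0.947). Isl1 was most like Mpi (0.967), Elac2 (0.962) and Cdh22 (0.961), and Mnx1 like Rab33a (0.97), Hpcal1 (0.966) and Dnah9 (0.96). For Slc5a7 and Slc18a3, added after the data were seen, the closest were 6330403K07Rik (0.996) and Pmm1 (0.992).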
